A study of Mus musculus with 11 samples.

Results

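The 10 genes described here are Krüppel-like factors (Klf2, Klf3, Klf4, Klf5, Klf6, Klf7, Klf9, Klf10, Klf13 and Klf15), picked by symbol out of 27179 Entrez gene identifiers. All 10 were found and all 10 passed the filter on low counts, among 17370 genes tested. They were measured by bulk RNA-seq in 4 groups of epithelial cells sorted from the mammary glands of C57BL/6 mice at 5 weeks of age. Basal duct, basal TEB and luminal TEB groups had 3 libraries each and the luminal duct group had 2, where TEB stands for terminal end bud, the bulb at the tip of a duct that drives its growth in puberty. All mice carried an E-cadherin-GFP reporter, and every group was gated as lineage-negative, CD29-positive and CD24-positive cells, of which those with bright reporter were taken as luminal and those with dim reporter as basal. Cells of at least 2 mice were pooled for a library, and the authors dropped another luminal duct library because it came from too few cells. The sources used here do not say which mice went into which library, so p-values measure the spread between pools.

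Krüppel-like factors bind GC-rich and CACCC sequences in promoters and enhancers through an array of C2H2 zinc fingers at the C-terminus, and their N-terminal parts recruit different partners. Klf2, Klf4, Klf5, Klf6 and Klf7 are known mainly for binding acetyltransferases, Klf3 for binding the CtBP corepressors, and Klf9, Klf10 and Klf13 for binding the Sin3 corepressor. In epithelia the family is known for its parts in proliferation, differentiation and hormone response, and Klf9 and Klf15 are textbook targets of the glucocorticoid receptor.

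Cell identity markers followed the labels, as summed levels of basal keratins and contractile genes were high only in basal libraries. Summed over 5 basal markers (Krt5, Krt14, Trp63, Acta2 and Myh11), expression was at least 4851 counts-per-million (CPM, after TMM scaling of library sizes) in each basal library and at most 190 CPM in each luminal one. Total counts per library ranged from 27989137 to 49221436, so counting error was small beside the spread between replicates for all members but Klf15. Genes of the mitochondrial chromosome took 37.5% of counts in basal TEB replicate 1, 28.5% in luminal duct replicate 3 and 17.8% in basal TEB replicate 3, against 4.34% to 10.9% elsewhere. In basal duct replicate 2 the sum of 5 endothelial markers (Pecam1, Cdh5, Kdr, Tek and Emcn) was 175 CPM, against 1.02 to 35.9 CPM in the other libraries.

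The 250 bases upstream of the RefSeq start are shown for the 4 members with a call that does not rest on a group near 0 counts (Klf6, Klf2, Klf9 and Klf13), because these genes belong to a family that itself binds GC-rich promoter DNA. Capitals mark the GC box GGGCGG and the CACCC box on either strand, 2 motifs that overlap in places. Sequences are from RefSeq on GRCm38.p6 (mm10), 5′ to 3′ on the strand of the gene. Klf6 lies on the plus strand at chr13:5861239-5861488, Klf2 on the plus strand at chr8:72318812-72319061, Klf9 on the plus strand at chr19:23140976-23141225 and Klf13 on the minus strand at chr7:63938916-63939165.
Klf6: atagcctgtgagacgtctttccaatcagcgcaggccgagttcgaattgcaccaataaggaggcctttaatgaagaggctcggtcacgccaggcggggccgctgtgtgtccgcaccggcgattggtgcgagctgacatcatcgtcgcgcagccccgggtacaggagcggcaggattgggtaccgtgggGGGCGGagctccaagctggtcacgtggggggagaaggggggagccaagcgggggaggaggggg
Klf2: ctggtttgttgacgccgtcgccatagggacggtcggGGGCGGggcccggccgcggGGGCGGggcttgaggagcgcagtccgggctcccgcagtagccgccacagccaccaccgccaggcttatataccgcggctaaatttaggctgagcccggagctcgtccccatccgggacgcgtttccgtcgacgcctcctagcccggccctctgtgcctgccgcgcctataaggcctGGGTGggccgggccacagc
Klf9: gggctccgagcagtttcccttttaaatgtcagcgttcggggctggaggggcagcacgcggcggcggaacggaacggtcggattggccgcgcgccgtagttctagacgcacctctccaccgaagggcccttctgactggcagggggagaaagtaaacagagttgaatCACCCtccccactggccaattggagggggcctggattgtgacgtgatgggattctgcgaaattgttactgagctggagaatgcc
Klf13: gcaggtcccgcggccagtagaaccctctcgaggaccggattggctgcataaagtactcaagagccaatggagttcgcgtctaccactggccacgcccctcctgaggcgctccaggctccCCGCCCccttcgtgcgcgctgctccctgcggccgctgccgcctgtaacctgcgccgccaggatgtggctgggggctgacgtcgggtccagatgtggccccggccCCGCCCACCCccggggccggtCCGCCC

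Of the 10 members, 8 had an entry in the promoter table. A GC box was found upstream of 7 of these 8, all but Klf9, and in 32.7% of 32851 upstream regions of the same length. The regions of Klf7 and Klf15 lie within the annotated span of the gene. For Klf4 the bases that follow the region were not found in its GENCODE transcripts. The CACCC box was in 6 of the 8 and in 52% of all regions, and the members without it were Klf4 and Klf6. CCAAT in either strand was found in 4 of the 8, with 4 copies in Klf6, 3 in Klf9, 2 in Klf13 and 1 in Klf15, against 33.8% of all regions with any copy. The AP-1 motif TGANTCA was found only in Klf9 among the 8, where it overlaps the CACCC box, and in 6.75% of all regions. No member had TATAAA (12.4% of all regions), the cAMP response element TGACGTCA (1.55%) or a CArG box (1.47%). The GC content of the 8 regions was 59.2% to 78.4%, against a median of 52.4% over all regions. These matches describe letters in a window and were not tested as binding sites.

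The plots of expression by library show how differently the 10 genes were distributed over the 4 groups.

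**Figure D1:**
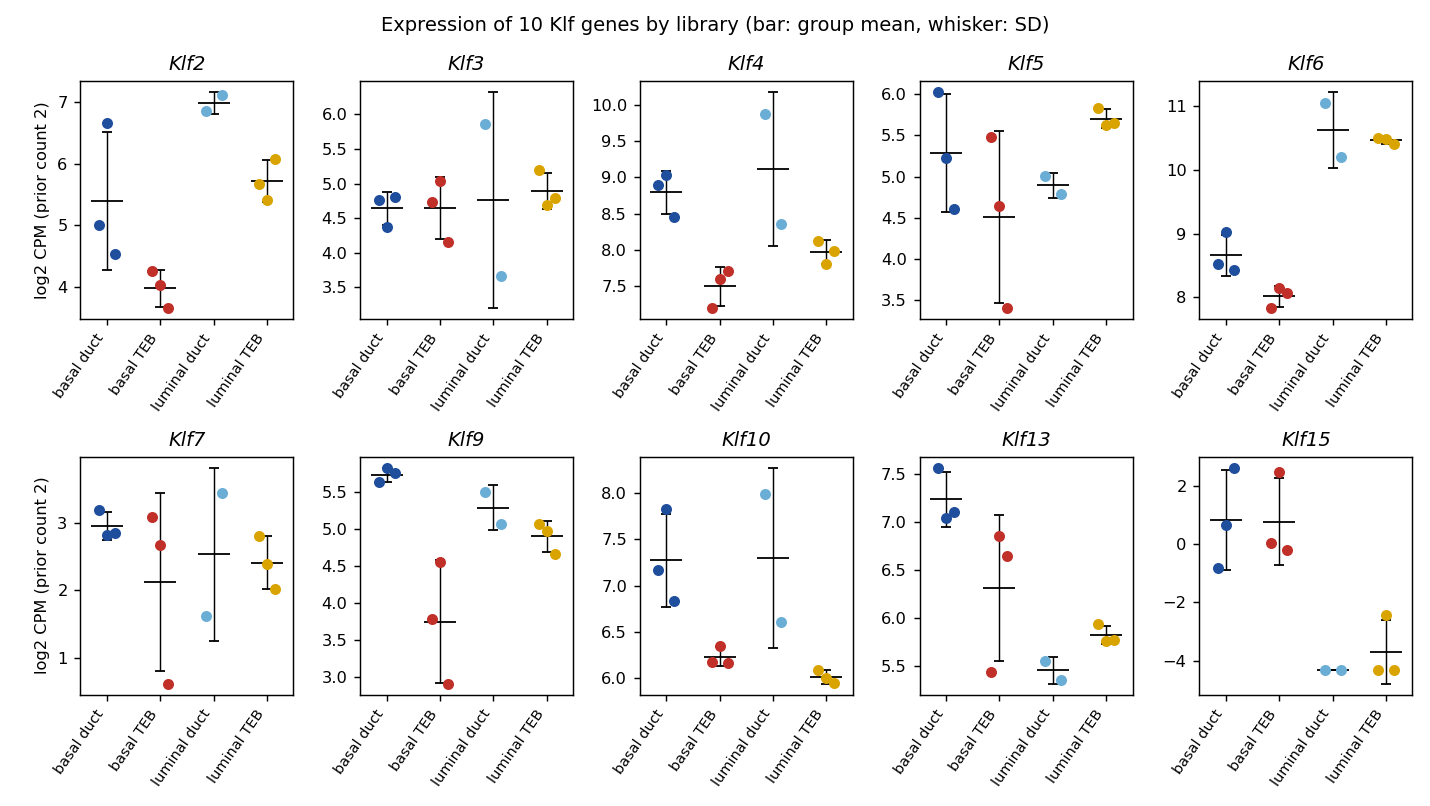
Expression of each Klf gene as log2 CPM (prior count 2, vertical axis, scaled separately in each panel) in the 11 libraries, grouped as basal duct, basal TEB, luminal duct and luminal TEB. Points are libraries, horizontal bars are group means and whiskers are SD. Klf6 separates luminal from basal libraries, Klf9 is lowest in the 3 basal TEB libraries, and Klf15 is at or near 0 counts in all 5 luminal libraries.

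To compare levels between genes, CPM were divided by the deposited gene length in kilobases (RPKM). Klf6 and Klf4 had the highest mean level in each of the 4 groups. In basal ducts, Klf4 (148 ± 29.1 RPKM, SD, n = 3) lay above Klf6 (97.6 ± 23.0), but their ranges over libraries overlapped. In basal TEBs the pair was close, at 61.7 ± 6.95 RPKM for Klf6 and 60.0 ± 10.6 for Klf4 (n = 3). In luminal ducts Klf6 had 281 and 504 RPKM against 108 and 307 for Klf4, which overlap. Among the 4 groups, the ranges were apart only in luminal TEBs, at 335 ± 11.2 RPKM for Klf6 and 82.6 ± 9.24 for Klf4 (n = 3).

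As a share of the summed RPKM of the 10 members, Klf6 held a mean of 23.9% in basal ducts, 30.1% in basal TEBs, 50.4% in luminal ducts and 62.8% in luminal TEBs. Klf4 held 36.2%, 29.3%, 24.9% and 15.5% in the same order. The sum itself ran from 319 to 500 RPKM in basal ducts, from 191 to 228 in basal TEBs and from 519 to 559 in luminal TEBs, and was 543 and 1025 in luminal ducts. At the other end of the order, Klf15 was lowest in each group and Klf7 next to lowest, with 4.01 to 5.77 RPKM on average for Klf7. In basal TEBs neighbours from Klf10 down to Klf15 overlapped in range at each step, whereas in basal ducts Klf13, Klf9, Klf3, Klf7 and Klf15 followed each other without overlap.

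**Figure D2:**
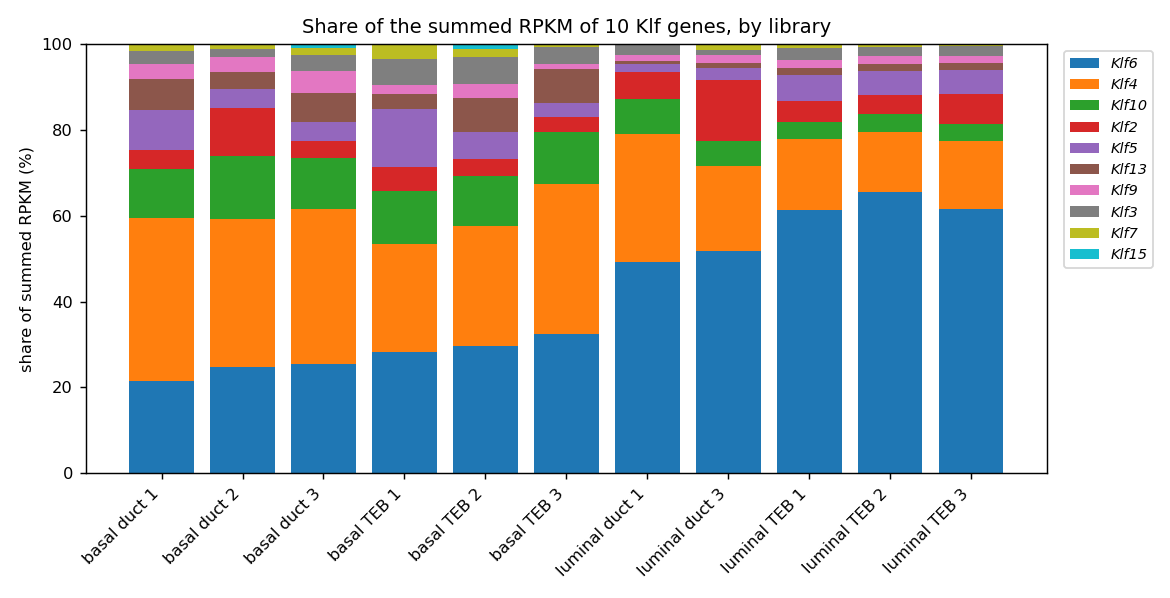
Share of each Klf gene (coloured segments) in the summed RPKM of the 10 members (vertical axis, percent) in each of the 11 libraries, ordered as basal duct, basal TEB, luminal duct and luminal TEB. The share of Klf6 is 21.4% to 25.5% in basal ducts and 61.4% to 65.5% in luminal TEBs, and that of Klf4 is 34.3% to 38.1% and 14.1% to 16.4%.

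TEBs were compared with ducts within each lineage to ask which genes differ between the growing tip and the formed duct. In basal cells, 1 of the 10 members was called (edgeR quasi-likelihood test over all genes, Benjamini-Hochberg FDR below 0.05), and it was Klf9, lower in TEBs. The background in this comparison was 1.32% of genes called. Groups did not overlap for 6 members, all of them lower in every basal TEB library (Klf2, Klf4, Klf6, Klf9, Klf10 and Klf13), while 20.8% of all genes tested were apart in either direction and 11.9% were lower. The median log2 fold change was -0.75 over the 10 members and -0.03 over all genes. In luminal cells no member was called by the edgeR quasi-likelihood test, 3 had an unadjusted p below 0.05, DESeq2 called 2 and limma voom called 0, against 1.41% of all genes called by the quasi-likelihood test. Groups were apart for 6 members in luminal cells, 4 lower and 2 higher in TEBs, against 43.7% of all genes, and the luminal ducts have 2 libraries. Some marker levels also differed between TEBs and ducts. In basal cells the sum of the 5 basal markers was 13501 to 16825 CPM in ducts and 4851 to 7694 CPM in TEBs, with Krt14 (log2 fold change -2.87, edgeR FDR 0.00766) and Krt5 (-2.30, FDR 0.0249) called lower. The sum of 6 fibroblast markers (Col1a1, Col1a2, Col3a1, Pdgfra, Dcn and Lum) was 430 to 840 CPM in basal ducts and 226 to 406 CPM in basal TEBs, and that of 6 luminal markers was 432 to 511 CPM and 239 to 279 CPM. Of the fibroblast markers, Dcn measured 318, 399 and 205 CPM in basal ducts and 157, 160 and 113 CPM in basal TEBs. Each of the other fibroblast markers overlapped between the 2 sites, and edgeR called 0 of the 6. Among luminal cells the basal markers summed to 69.4 and 190 CPM in ducts and 10.3 to 21.3 CPM in TEBs, and edgeR called 4 of the 5 lower (Acta2, Krt14, Myh11 and Krt5, FDR 0.0104, 0.0107, 0.0226 and 0.0454). None of these genes was at 0 in all libraries of a group named here, and their part in the Klf values was not tested. In these bulk samples, fewer cells of a type and less RNA per cell cannot be told apart.

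Basal and luminal cells were compared within each site to ask which genes mark the lineages. In ducts 3 of the 10 members were called (Klf6 higher in luminal cells, Klf13 and Klf15 higher in basal cells), against 22.3% of all genes. In TEBs 2 were called (Klf6 and Klf2, both higher in luminal cells), against 25.1% of all genes. These shares of members are close to those of all genes. Groups were apart for 5 members in ducts and 7 in TEBs, with 46% and 49.8% of all genes apart. In the interaction, which asks whether the TEB difference itself differed between lineages, the edgeR quasi-likelihood test called 0 members and 0.443% of all genes, DESeq2 called 0 members, and 2 members (Klf9 and Klf13) had an unadjusted p below 0.05. The basal TEB and basal duct libraries each enter 2 of the comparisons between groups, as do the luminal ones. All of these libraries also enter the interaction, so the comparisons are not independent.

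**Figure D3:**
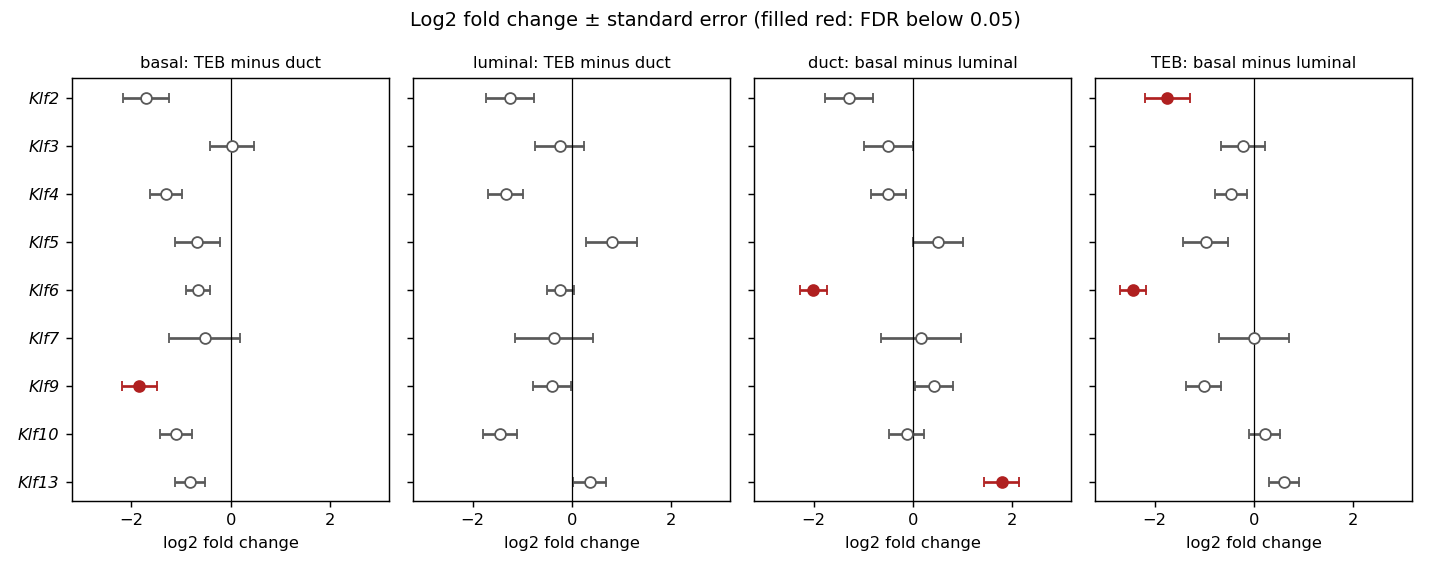
Log2 fold change with its standard error (horizontal axis) for 9 Klf genes in the 4 comparisons, with genes below an FDR of 0.05 filled in red. Klf15 is left out because its luminal counts are at or near 0. Klf9 is called in basal cells, none in luminal cells, Klf6 and Klf13 between lineages in ducts, and Klf2 and Klf6 between lineages in TEBs.

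Klf6, a broadly expressed and rapidly inducible factor, was the member with the clearest lineage difference. It measured 369, 522 and 343 CPM in basal ducts and 228, 285 and 268 CPM in basal TEBs. In luminal cells it measured 2124 and 1184 CPM in ducts, and 1449, 1432 and 1360 CPM in TEBs. Every luminal library was above every basal one. By edgeR the log2 fold change of basal against luminal cells was -2.01 (SE 0.27, FDR 0.000214) in ducts, a 4.02-fold lower level in basal cells, and -2.44 (SE 0.26, FDR 2.45e-05) in TEBs, 5.43-fold lower. Both calls held under all 22 alternative settings. Between TEBs and ducts, basal Klf6 was 0.63-fold (log2 fold change -0.66, SE 0.24) and was not called (edgeR FDR 0.247).

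Klf4, a factor of epithelial differentiation and one of the reprogramming factors, measured 475, 523 and 351 CPM in basal ducts against 146, 193 and 209 CPM in basal TEBs. Luminal ducts held 934 and 329 CPM and luminal TEBs 279, 223 and 253 CPM. The TEB libraries were below the duct libraries in both lineages. The log2 fold change was -1.30 (SE 0.32) in basal cells and -1.33 (SE 0.35) in luminal cells, and neither passed the threshold (edgeR FDR 0.0867 and 0.085). The basal difference was below 0.05 in 9 of 22 alternatives and the luminal one in 5 of 22. Among these were leaving out luminal duct replicate 1 (edgeR FDR 0.00889) or replicate 3 (0.00856) for the basal difference. Leaving out luminal duct replicate 3 gave a luminal log2 fold change of -1.89 (edgeR FDR 0.0118) and, in ducts, a basal against luminal log2 fold change of -1.06 (edgeR FDR 0.0156). Leaving out luminal duct replicate 1 gave a luminal value of -0.39 and turned the sign of the duct comparison, to 0.45, which was not called. The luminal Klf4 difference therefore depends on 2 duct libraries that lay further apart on the log2 scale than the TEB and duct means.

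Klf2, known from endothelial cells and lymphocytes, measured 32.0, 101 and 23.2 CPM in basal ducts and 19.0, 16.3 and 12.6 CPM in basal TEBs. It measured 116 and 138 CPM in luminal ducts and 50.7, 42.4 and 67.6 CPM in luminal TEBs. Basal TEBs were lowest, luminal ducts were highest, and basal duct replicate 2 lay far above the other basal duct libraries. In TEBs, Klf2 was 3.36-fold lower in basal than in luminal cells (log2 fold change -1.75, SE 0.46, edgeR FDR 0.0144). That call held in 20 of 22 alternatives and was lost without basal TEB replicate 3 (edgeR FDR 0.0636) or luminal TEB replicate 3 (0.0533).

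The remaining Klf2 differences were -1.71 (SE 0.46, edgeR FDR 0.111) for basal TEBs against ducts, -1.25 (SE 0.49, FDR 0.226) for luminal TEBs against ducts and -1.29 (SE 0.49, FDR 0.0811) for basal against luminal cells in ducts. Without basal duct replicate 2 the edgeR values were -0.79 (FDR 0.329) for basal TEBs against ducts and -2.20 (FDR 0.00052) for ducts, while the luminal value stayed at -1.25 and its FDR, from the shared fit, was 0.042. Without basal duct replicate 3 the basal value was -2.06 (edgeR FDR 0.0371). In basal duct replicate 2, the 101 CPM of Klf2 stood beside an endothelial marker sum of 175 CPM, whereas the sums were 8.48 and 16.3 CPM in basal duct replicates 1 and 3. In the luminal duct libraries, Klf2 measured 116 CPM beside an endothelial sum of 1.02 CPM and an immune sum of 1.43 CPM in replicate 1, and 138 CPM beside 26.2 and 58.5 CPM in replicate 3. The part of endothelial and immune RNA in the Klf2 values was not tested.

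**Figure D4:**
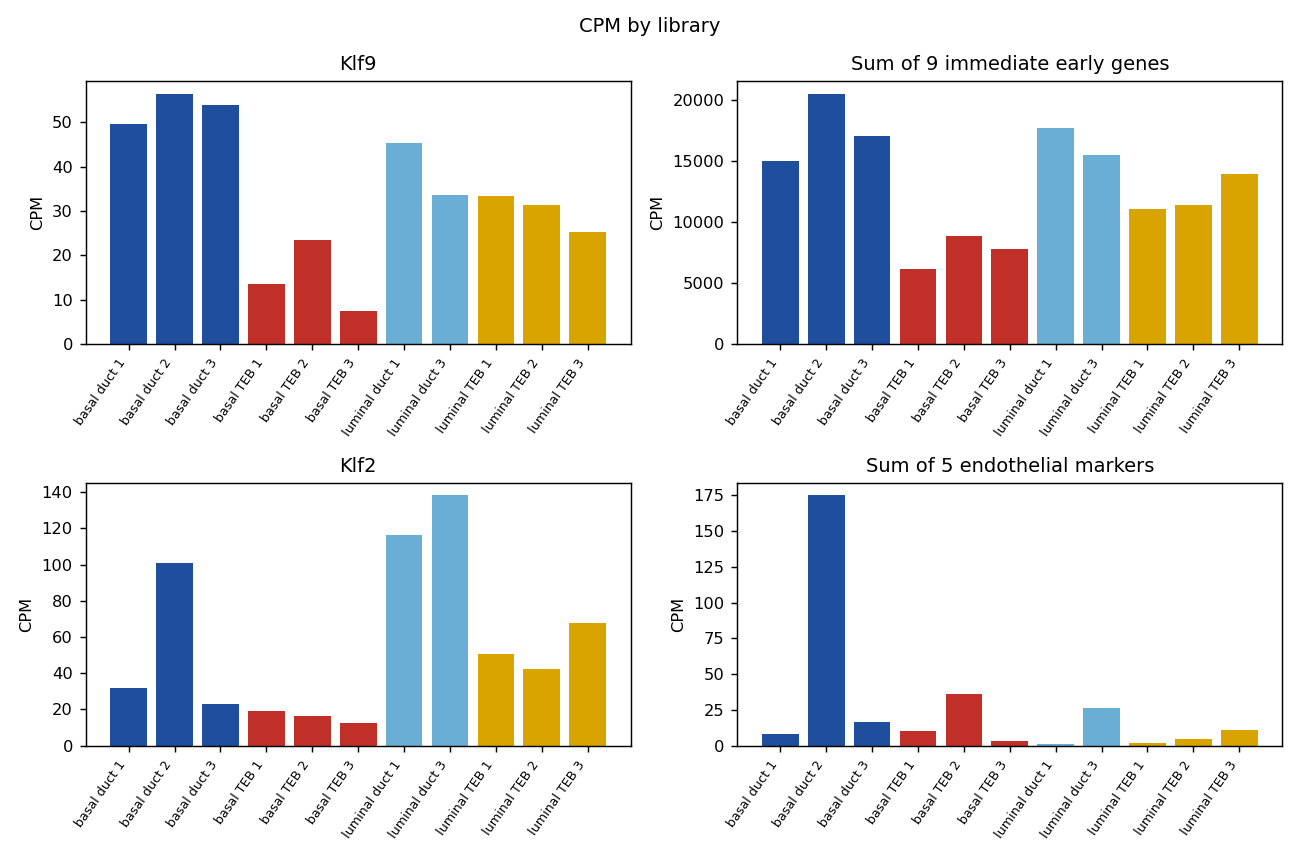
CPM in each of the 11 libraries (bars) for Klf9 beside the sum of 9 immediate early genes, and for Klf2 beside the sum of 5 endothelial markers. Klf9 and the immediate early sum are both lowest in the 3 basal TEB libraries, and the endothelial sum of 175 CPM is in basal duct replicate 2, where Klf2 is 101 CPM.

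Klf5, a factor of proliferating epithelium, measured 65.3, 37.5 and 24.2 CPM in basal ducts and 44.6, 24.8 and 10.5 CPM in basal TEBs, ranges that overlap. It measured 32.0 and 27.6 CPM in luminal ducts and 57.0, 49.2 and 50.2 CPM in luminal TEBs, so that luminal TEBs lay above luminal ducts. No Klf5 difference was called by edgeR. Basal against luminal TEBs was below an FDR of 0.05 in 6 of 22 alternatives, among them leaving out basal TEB replicate 1 (edgeR FDR 0.0253). Klf7 was among the least expressed members, with 7.03 to 9.12 CPM in basal ducts, 1.48 to 8.43 CPM in basal TEBs, 3.03 and 10.8 CPM in luminal ducts and 4.03 to 6.97 CPM in luminal TEBs. Its ranges overlapped in all 4 comparisons and it was called in no setting.

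Klf3, which represses through CtBP, measured 27.0, 20.6 and 27.9 CPM in basal ducts, 26.6, 32.9 and 17.8 CPM in basal TEBs and 36.5, 25.8 and 27.7 CPM in luminal TEBs. The 2 luminal duct libraries differed most, at 58.3 and 12.6 CPM. No difference was called. Without luminal duct replicate 3, the one with 12.6 CPM, basal ducts were lower than luminal ducts by edgeR (log2 fold change -1.22, FDR 0.0355). Without luminal duct replicate 1 the sign turned, to a Klf3 log2 fold change of 1.00 that was not called.

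Klf9, a hormone-responsive member known as a target of glucocorticoid and thyroid hormone receptors, measured 49.6, 56.5 and 54.0 CPM in basal ducts and 13.6, 23.5 and 7.42 CPM in basal TEBs. Luminal ducts held 45.3 and 33.6 CPM and luminal TEBs 33.4, 31.3 and 25.4 CPM. The 3 basal duct libraries lay close together and above all others, and the 3 basal TEB libraries were below all others. Klf9 was 3.59-fold lower in basal TEBs than in basal ducts (log2 fold change -1.84, SE 0.35, edgeR FDR 0.0282). The log2 fold change lay between -2.40 and -1.52 in the 22 alternatives, and the call held in 11 of them.

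The Klf9 call was lost by edgeR without basal duct replicate 1 (FDR 0.0902), 2 (0.0971) or 3 (0.0555), without basal TEB replicate 1 (0.0889) or 3 (0.0717), and without luminal TEB replicate 1 (0.0574), 2 (0.0564) or 3 (0.0556). It was also lost with no composition normalization (FDR 0.139), in a fit of the 2 groups only (0.0621), and without the 2 libraries with the highest mitochondrial share (0.0649, log2 fold change -1.78). Between the lineages in TEBs the log2 fold change of Klf9 was -1.01 (SE 0.35, edgeR FDR 0.0507), below the threshold in 7 of 22 alternatives, among them leaving out basal TEB replicate 2 (log2 fold change -1.55, edgeR FDR 0.00362). The interaction was -1.45 (SE 0.52) and was not called (edgeR FDR 0.233), except without basal TEB replicate 2 (-1.99, FDR 0.0413). A lower Klf9 in basal TEBs was therefore not shown to be particular to basal cells.

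Klf10, a gene induced early by TGF-beta, measured 144, 227 and 114 CPM in basal ducts and 72.3, 81.5 and 71.9 CPM in basal TEBs. Luminal ducts held 255 and 97.7 CPM and luminal TEBs 68.2, 64.2 and 61.5 CPM. As for Klf4, TEB libraries were below duct libraries in both lineages. The log2 fold change was -1.10 (SE 0.32, edgeR FDR 0.14) in basal and -1.45 (SE 0.35, edgeR FDR 0.068) in luminal cells, and neither was called. The basal difference passed in 4 of 22 alternatives, including without luminal duct replicate 1 (edgeR FDR 0.0356) or 3 (0.0347), and the luminal one in 7 of 22, including without luminal duct replicate 3 (log2 fold change -1.98, edgeR FDR 0.0151) or basal duct replicate 2 (FDR 0.0456). Without luminal duct replicate 1 the luminal value was -0.59. Over the 11 libraries Klf4 and Klf10 had the highest correlation of any pair of members (Pearson r = 0.90 on log2 CPM), a description of libraries that share their groups.

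Klf13, a repressor that binds Sin3, was higher in basal than in luminal ducts. It measured 189, 131 and 138 CPM in basal ducts and 43.3, 115 and 100.3 CPM in basal TEBs, against 46.9 and 40.9 CPM in luminal ducts and 61.1, 54.1 and 54.7 CPM in luminal TEBs. Basal duct libraries were above all others, and basal TEB replicate 1, the library with a mitochondrial share of 37.5%, was below the luminal TEB libraries. In ducts Klf13 was 3.47-fold higher in basal than in luminal cells (log2 fold change 1.80, SE 0.35, edgeR FDR 0.00303), and the call held under all 22 alternatives. In TEBs the lineages overlapped and no call was made, but without basal TEB replicate 1 the log2 fold change was 0.92 (edgeR FDR 0.00512). Basal TEBs were 0.57-fold of basal ducts (log2 fold change -0.82, SE 0.30), which was not called (edgeR FDR 0.237). The annotation places E030018B13Rik over Klf13 and Mir1192 over Klf9, with 256 and 244 counts in all over the 11 libraries, and whether counting used strand was not given in the sources used here.

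Klf15, a glucocorticoid-induced regulator of metabolism, was the least expressed member. It measured 0.519, 1.53 and 6.13 CPM in basal ducts and 0.981, 5.54 and 0.812 CPM in basal TEBs. Luminal ducts held 0 counts in both libraries, which allows up to 0.0683 and 0.123 CPM (3 counts per library), and luminal TEBs held 7 counts in all, 0.133 CPM in replicate 2 and 0 in replicates 1 and 3. Each basal library was above each luminal one, but basal libraries of one group differed from each other widely. In ducts the mean of 2.73 CPM in basal cells was at least 28.4-fold higher than in luminal cells, taking 3 counts per library as the limit (edgeR FDR 0.0447). Without basal duct replicate 3 the basal mean was 1.02 CPM and the limit 10.7-fold, and it was 22.1- to 40.0-fold with any other duct library left out. That call held in 10 of 22 alternatives. By edgeR it was lost without basal duct replicate 1 (FDR 0.0506), 2 (0.0577) or 3 (0.0999), basal TEB replicate 2 (0.0568) or 3 (0.0556) and luminal duct replicate 1 (0.144) or 3 (0.131). It was also lost with the replicate number as a block (FDR 0.068), no composition normalization (0.0573), the 2 groups alone (0.0655) or without the 2 libraries with the highest mitochondrial share (0.0955), and by voom with quality weights (0.134).

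In TEBs the Klf15 difference was not called (edgeR FDR 0.063), and it was below the threshold in 8 of 22 alternatives, among them without luminal TEB replicate 2 (FDR 0.036) or luminal duct replicate 3 (FDR 0.048). Klf15 is also expressed in adipose tissue, and the sum of 5 adipocyte markers was 4.07, 187 and 11.5 CPM in basal ducts, 2.14, 24.0 and 11.8 CPM in basal TEBs, 0 and 75.1 CPM in luminal ducts and 0.628 to 9.34 CPM in luminal TEBs. The 2 highest sums were mostly or wholly Fabp4, which capillary endothelium and macrophages also express, at 179 CPM in basal duct replicate 2 and 75.1 CPM in luminal duct replicate 3. Adipoq, the defining adipocyte marker, had 0 counts in all duct libraries and in the luminal TEBs, and measured 2.14, 0.421 and 2.13 CPM in basal TEBs. Lep measured 3.59, 2.79 and 0.795 CPM in basal ducts and 0, 0.442 and 1.15 CPM in basal TEBs. It had 0 counts in every luminal library. Cidec measured 0, 5.29 and 0.667 CPM in basal ducts and 0, 0.421 and 1.15 CPM in basal TEBs. Its luminal maximum was 0.0953 CPM. Between lineages edgeR called 0 of 4 tested adipocyte markers in ducts and 2 in TEBs. Those were Adipoq and Lep, higher in basal cells, and 22.3% and 25.1% of all genes were called. The part of adipocyte RNA in the Klf15 values was not tested.

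Other Klf and Sp genes gave few differences. Of 16 listed, 10 were tested, and the edgeR quasi-likelihood test called 0 of them in any of the 5 tests. For TEBs against ducts, 1.32% of all genes were called in basal cells and 1.41% in luminal cells. Between lineages the shares were 22.3% in ducts and 25.1% in TEBs, and in the interaction 0.443%. Among the genes tested, Klf1, Sp6 and Klf12 had low levels (at most 0.73, 3.00 and 5.28 CPM in a library), which limits their tests. Klf11 in ducts and Sp2 in TEBs had an unadjusted p below 0.05 between lineages, DESeq2 called 1 gene in ducts, and limma voom called 0. Without basal TEB replicate 1 or luminal duct replicate 1, Klf11 was called in ducts. Klf14, Klf17, Sp5, Sp7, Sp8 and Sp9 did not pass the filter on low counts.

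Among 13 cofactors and ubiquitin ligases of Klf proteins, 1 was called in basal TEBs against ducts, 0 in luminal TEBs against ducts (2 with an unadjusted p below 0.05, and 0 by DESeq2), 3 between lineages in ducts (2 higher and 1 lower in basal cells) and 6 between lineages in TEBs (3 higher and 3 lower), by edgeR. The shares of all genes called, in the same order, were 1.32%, 1.41%, 22.3% and 25.1%. Kat2b, an acetyltransferase, was lower in basal TEBs (log2 fold change -1.54, edgeR FDR 0.0303, called in 12 of 22 alternatives), at 13.0, 22.3 and 13.7 CPM against 69.4, 36.5 and 36.9 CPM in basal ducts. In TEBs, Kat2b was also lower in basal than in luminal cells (log2 fold change -2.40, edgeR FDR 0.000113, held in all 22). Ctbp2, the corepressor that Klf3 binds, was higher in basal than in luminal TEBs (log2 fold change 1.61, edgeR FDR 8.66e-05, held in all 22). Hdac1, a histone deacetylase of the Sin3 complex, was lower in basal cells of ducts (log2 fold change -1.39, edgeR FDR 0.000401) and of TEBs (-1.03, FDR 0.00147), both in all 22 alternatives. Hdac2, its close relative, was higher in basal TEBs than in luminal TEBs (log2 fold change 0.97, edgeR FDR 0.00232, held in 21 of 22).

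Among 12 receptors and regulators upstream of Klf genes, 1 was called in basal TEBs against ducts, 3 in luminal TEBs against ducts (2 higher and 1 lower), 3 between lineages in ducts (2 higher and 1 lower in basal cells) and 6 in TEBs (2 higher and 4 lower), beside the same 1.32%, 1.41%, 22.3% and 25.1% of all genes. Nr3c1, the glucocorticoid receptor, was higher in basal than in luminal cells of ducts (log2 fold change 1.72, edgeR FDR 0.000306) and of TEBs (1.67, FDR 9.43e-05), both in all 22 alternatives. It was not called between TEBs and ducts. Tgfbr2, a receptor for TGF-beta, measured 90.3, 86.6 and 76.7 CPM in basal ducts, 40.9, 52.4 and 43.1 CPM in basal TEBs, 135 and 160 CPM in luminal ducts and 309, 356 and 392 CPM in luminal TEBs. Its TEB difference had opposite signs in the lineages, lower in basal cells (log2 fold change -0.89, edgeR FDR 0.0249, called in 13 of 22) and higher in luminal cells (1.26, FDR 0.0122, called in 20 of 22). The interaction for Tgfbr2 was -2.15 (SE 0.25, edgeR FDR 0.00563). Tgfbr1 was higher in basal than in luminal ducts (log2 fold change 2.41, edgeR FDR 0.000162, held in all 22). The call of Mef2c in luminal cells (edgeR FDR 0.0405) rested on luminal duct replicate 3, with 20.5 CPM against 0.43 CPM in replicate 1, and was lost without that library (FDR 0.822).

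Of 6 glucocorticoid response genes, 2 were lower in basal TEBs than in basal ducts by edgeR, as Klf9 was, against 1.32% of all genes called. Dusp1, a phosphatase of the MAP kinases that is also an immediate early gene, fell from 316, 432 and 349 CPM to 41.5, 107 and 63.9 CPM (log2 fold change -2.37, FDR 0.0033, held in all 22 alternatives). Sgk1, a kinase, fell from 876, 986 and 558 CPM to 298, 425 and 323 CPM (log2 fold change -1.21, FDR 0.0303, called in 12 of 22). The other 4 (Fkbp5, Tsc22d3, Per1 and Zbtb16) were not called there, and Fkbp5 measured 5.63, 9.05 and 13.1 CPM in basal ducts against 24.0, 17.9 and 11.1 CPM in basal TEBs. The log2 fold change was positive for Fkbp5 (0.93, edgeR FDR 0.314) and Per1 (0.37, FDR 0.459). It was negative for Tsc22d3 (-0.735, edgeR FDR 0.443) and Zbtb16 (-2.69, FDR 0.408). In luminal TEBs against ducts edgeR called 0 of the 6 and 1.41% of all genes. Of the 6, 3 had an unadjusted p below 0.05 there and DESeq2 called 1. Between lineages, 2 were called in ducts and 3 in TEBs, against 22.3% and 25.1% of all genes.

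Immediate early genes, which cells induce quickly on stimulation or dissociation, were counted in the same comparisons. Of 9 such genes, 5 were lower in basal TEBs than in basal ducts by edgeR (Dusp1, Fosb, Atf3, Fos and Junb), against 1.32% of all genes called, and the other 4 (Jun, Jund, Egr1 and Ier2) did not pass. Every one of the 9 was lower in each basal TEB library than in each basal duct library, as were 11.9% of all genes. All 9 had an unadjusted p below 0.05 in that edgeR test, against 14.5% of all genes. In luminal TEBs against ducts edgeR called 0 of the 9 and 1.41% of all genes. Of the 9, 3 had an unadjusted p below 0.05 there and DESeq2 called 1. Between lineages, 5 were called in ducts (3 higher and 2 lower in basal cells) and 4 in TEBs (1 higher and 3 lower), against 22.3% and 25.1% of all genes. The log2 fold change was -1.58 for Fosb (FDR 0.00585), -2.03 for Atf3 (FDR 0.00664) and -1.52 for Fos (FDR 0.0239). The summed level of the 9 was 14934 to 20492 CPM in basal ducts, 6114 to 8811 CPM in basal TEBs, 15485 and 17668 CPM in luminal ducts and 11019 to 13886 CPM in luminal TEBs. Gene by gene in luminal cells, Fos, Fosb, Ier2, Atf3 and Dusp1 were lower in every TEB library than in every duct library. The same held for 17.4% of all genes tested, with 2 luminal duct libraries. Jun, Junb, Jund and Egr1 overlapped there, with log2 fold changes of 0.04, 0.175, -0.12 and -0.25. In both lineages the TEB range of the sum was below its duct range, as for Klf4, Klf10, Klf9 and Klf2. For Klf9 the luminal ranges nearly met, at most 33.4 CPM in TEBs and at least 33.6 CPM in ducts. Klf6 and Klf13 were also lower in every basal TEB library. In luminal cells Klf6 overlapped between the sites and Klf13 was higher in TEBs. The share of all genes lower in both lineages was not computed. The part of a shared early response in the values of these Klf genes was not tested.

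For each member called in some comparison, the genes whose log2 CPM ran closest to it over the 11 libraries were listed among tested genes averaging 4 or more log2 CPM. Klf6 was nearest to Serinc3, Dusp10 and Ifi35 (Pearson r of 0.99 for each), Klf13 to Cldnd1, Slc41a1 and Slc39a14 (0.97, 0.97 and 0.96), and Klf2 to genes that included Birc3 and Atxn3 (0.96 and 0.94). Klf9 was nearest to Dst, Klhl7 and Ube2h (0.94, 0.93 and 0.93) and Klf15 to Inpp1, Spred1 and Arhgef3 (0.96, 0.95 and 0.94). These values describe 11 libraries that share 4 groups and carry no test.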

How the data were processed

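RNA-seq libraries of sorted basal and luminal cells were aligned by the authors to mm10 with Rsubread and counted with featureCounts by Entrez gene. The deposited counts are whole numbers without normalization, listed with a gene length. The table of a single library held the same values as its column of the combined matrix, of which no column went unused. Of 27179 identifiers, 25275 (93.0%) were given a symbol from the RefSeq table of GRCm38.p6, which names all 10 members.

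Low counts were removed by filterByExpr at a minimum count of 10 and a minimum total of 15, library sizes were scaled by TMM, and 1 model over 4 groups was fitted with the quasi-likelihood test of edgeR 4.0.16 (R 4.3.3), with Benjamini-Hochberg adjustment over 17370 genes at 0.05. The study names estimateDisp and glmFit of edgeR. The SE is the absolute log2 fold change over the square root of F. The common biological coefficient of variation was 0.704. CPM use TMM library sizes, log2 CPM a prior count of 2, and RPKM the deposited length. Where a library had 0 counts, 3 counts were taken as the upper limit, for counting error alone. Fold changes are printed for members with an unadjusted p below 0.05, or where an alternative makes a call.

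Alternatives were DESeq2 size factors, no composition normalization, no filter, the likelihood ratio test, DESeq2 1.42.0, limma 3.58.1 voom with and without quality weights, the replicate number as a block, mitochondrial genes removed, each library left out, the 2 libraries with the highest mitochondrial share left out, and a fit of the 2 groups alone. The model was also run on simulated counts with a smaller spread than these data and no difference between lineages. That run does not measure error rates in these libraries. Named genes are the 10 members, at most 4 of each companion list with the lowest FDR in a comparison, and the 3 genes nearest to each called member, of which 1 is not reported here. Genes named beyond this rule (Fkbp5, Klf11 and Sp2, and those given as uncalled) were chosen after their values were seen. The members and lists were chosen with earlier results of these data known. ATAC-seq and single-cell data were not analysed here.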

Additional observations from a re-analysis of the deposited data

Results flagged for a closer look

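Klf13 was lower in every basal TEB library than in every basal duct library, and higher in every luminal TEB library than in every luminal duct library. The basal difference minus the luminal difference was -1.19 on the log2 scale and did not pass the test of the difference itself (edgeR interaction FDR 0.25).

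The same opposite movement was seen for 4 genes of the companion lists. Of all genes tested, 11.9% were lower in every basal TEB library than in every basal duct library. In luminal cells, 26.2% were higher in every TEB library than in every duct library. The share of all genes with both movements was not computed, so these cases are not shown to be more frequent than among all genes. For Tgfbr2 the difference between lineages was -2.15 on the log2 scale and passed (edgeR interaction FDR 0.00563, held in 20 of 21 alternatives). For Kat2b it was -2.27 (FDR 0.0601), for Sgk1 -1.59 (FDR 0.0826) and for Crebbp -0.56 (FDR 0.36), none of which passed. Luminal ducts have 2 libraries, and groups of 2 or 3 libraries were not searched for outlying samples.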

How the results depend on the processing

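Klf6 in ducts and TEBs and Klf13 in ducts were called in all 22 alternatives. The number of members called moved as follows. In basal TEBs against ducts it was 1, and became 0 with no composition normalization, 2 with no filter, voom or voom with quality weights, 4 with the likelihood ratio test or DESeq2, and 0 to 3 with a library left out. In luminal cells it was 0, and became 1 with no filter or the 2 groups alone, 2 with the likelihood ratio test, DESeq2, voom with quality weights or without the 2 libraries with the highest mitochondrial share, and 0 to 2 with a library left out. Between lineages in TEBs it was 2, and became 4 with the likelihood ratio test or DESeq2, 5 with voom or without the 2 libraries with the highest mitochondrial share, 6 with voom and quality weights, and 1 to 4 with a library left out. In ducts it was 3 and stayed at 2 to 4. In the interaction it was 0, and 0 to 1 with a library left out. The gene called in basal TEBs against ducts could also change. With the 2 groups alone, edgeR called Klf4 (FDR 0.0265) in place of Klf9. Without the 2 libraries with the highest mitochondrial share it also called Klf4 in place of Klf9 (FDR 0.024). Without basal duct replicate 3, edgeR called Klf2 (FDR 0.0371) in place of Klf9. The cause of these shifts was not tested.

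With the replicate number as a block, 4 members were called in TEBs, 2 in ducts and 1 in basal cells. Whether equal numbers mark the same mice is not given in the sources used here. Among 15 same-numbered pairs, the correlation of deviations from group means ran from -0.07 to 0.16, with 4 above 0.1. These values do not settle whether the libraries are paired. Of the 19 member differences with an unadjusted p below 0.05, 0 changed sign in any alternative, and of the other 31, 18 did in at least 1. With no composition normalization the median over all genes (log2 fold change) moved from -0.03 to -0.16 in basal cells, from 0.04 to 0.42 in luminal cells, from 0.08 to 0.19 in ducts, from 0.04 to -0.35 in TEBs and from -0.13 to -0.63 in the interaction. Depth limits Klf15 alone, which had 0 or few counts in luminal cells.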
